A study of Drosophila melanogaster with 15 samples.

Results

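Embryos of Drosophila melanogaster that had received 500 µGy of gamma rays 30 min before freezing were compared with unirradiated embryos of the same age. The comparison used the 3 arrays of the 30 min group, replicates A, B and C, and the 3 control arrays with the same letters, 6 of the 15 arrays of the series. All embryos were of the w[1118] strain, which carries a mutant white gene, and were frozen at an age of 3-4 hours. The 30 min group had been exposed at 22.4 mGy/h, and the control group received 0 µGy. The other 9 arrays hold embryos frozen 5, 60 or 90 min after the same dose, and they entered the estimate of the spread. Each sample was a pool of many embryos laid within an hour, so a value is an average over embryos of different exact ages, and fewer cells of a type cannot be told apart from less RNA per cell.

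At this age a fly embryo completes the cellular blastoderm and starts gastrulation. Messenger RNAs that the mother loaded into the egg are degraded, and the embryo's own genes are transcribed in patterned stripes and domains, so that many transcripts change quickly with age. Ionising radiation breaks DNA. In the fly, breaks activate the kinases ATM (tefu) and ATR (mei-41) and their targets Chk2 (lok) and Chk1 (grp). The factor p53 then induces the death genes hid, reaper and sickle (skl) and repair genes such as Ku70 (Irbp) and Ku80. Probe sets assigned to hid, reaper (rpr) or Xrp1 alone were not available for naming, so these 3 genes were not analysed here.

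Values are intensities per probe set, and a difference is the mean log2(intensity + 1) of the 30 min arrays minus that of the controls. Weight was put on the 5731 of 18769 probe sets with a mean log2 of 8 or more over the 6 arrays, called bright here. Dimmer probe sets carry more noise with this kind of summary. The bright probe sets matched 4850 genes with a single symbol. The A arrays and the C arrays lay apart in every group, and the B arrays spread from the level of the A arrays to that of the C arrays. On the first principal component of the bright probe sets, which held 68% of the variance, 30 min A, B and C lay at -44.17, -33.68 and 48.5 and control A, B and C at -40.14, -42.21 and 54.06. The closest control, by correlation across bright probe sets, was control B for 30 min A (0.958) and for 30 min B (0.871), and control C for 30 min C (0.923). Hybridisation spike-in controls averaged 10.87, 11.05 and 11.53 in the 30 min arrays and 10.81, 10.72 and 11.6 in the control arrays on the log2 scale, so they too were highest in replicate C. Their part in the results was not tested beyond the fit that takes their level as a covariate.

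**Figure D1:**
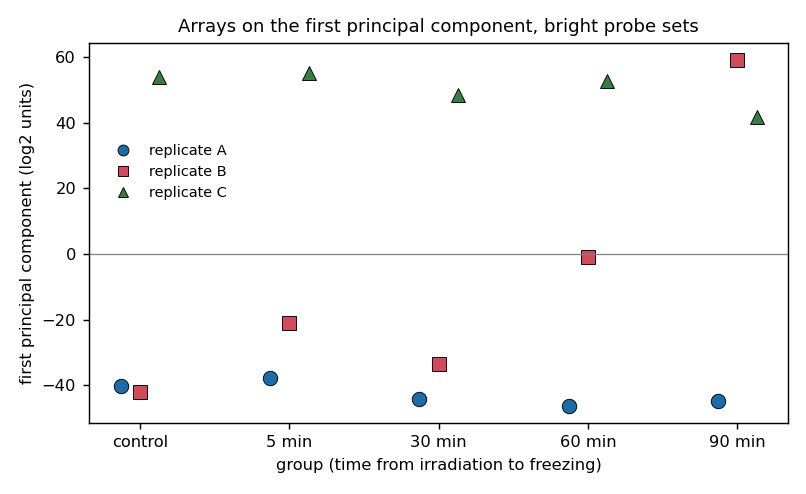
First principal component of the 15 arrays over 5731 bright probe sets, by group from control to 90 min (x axis), with colour and symbol for the replicate letter (y axis in log2 units). The 5 C arrays and 90 min B lie above 40, the A arrays and control B lie at -37.93 or below, and 30 min B lies at -33.68.

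No transcript was shown to differ between irradiated and control embryos at 30 min. In limma's test over all 18769 probe sets, 0 passed an adjusted p of 0.05, and the smallest adjusted p was 0.39. Blocking on the letter also left 0, with a smallest adjusted p of 0.657. Without the block 506 probe sets had an unadjusted p under 0.05, a share of 2.7%, and with it 1116 had one, 5.95%. Among bright probe sets these counts were 18 (0.314%) and 408 (7.12%), and the 408 divided into 204 higher (3.56%) and 204 lower (3.56%) at 30 min. For the median bright probe set the 95% interval reached 1.01 to either side of the log2 difference, and 0.624 with the block.

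Few bright transcripts had separate ranges in both groups. All 3 arrays of the 30 min group lay above all 3 controls for 26 bright probe sets (0.454%) and below them for 6 (0.105%). Over all 18769 probe sets the share above was larger, at 754 (4.02%). With 3 arrays against 3 an exact permutation test cannot go below p = 0.1, so separation alone passes no threshold. The genes below were taken from these bright probe sets in the order of their p in limma's test.

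Among the higher ones was kuk, which encodes Kugelkern, a nuclear envelope protein that elongates the nuclei of the blastoderm. Its intensity was 25320.5, 27066 and 25007 in 30 min A, B and C, against 20546, 24019 and 19107 in control A, B and C. The lowest irradiated value thus lay just above the highest control, and the difference was 0.29 ± 0.18 (SE). C3G, an exchange factor that activates the GTPase Rap1, had 408, 464 and 434 at 30 min and 269, 367 and 232 in the controls, a difference of 0.61 ± 0.37. bdg, a member of the neurotransmitter transporter family, had 744, 1039 and 928 at 30 min and 610.3, 717 and 621 in the controls. Its 30 min B array was the highest of the 6, and the difference was 0.47 ± 0.34. M6, a proteolipid of cell membranes, differed by 0.41 ± 0.34, and pasi1, a septate junction gene, by 0.33 ± 0.32. CstF64, a subunit of the complex that cleaves mRNA 3′ ends, differed by 0.31 ± 0.30, simj, a subunit of the NuRD chromatin remodeller, by 0.29 ± 0.31, and Ssu72, a phosphatase of the RNA polymerase II tail, by 0.30 ± 0.33. The 12 genes named from the 26 probe sets also held CG15111 (0.48 ± 0.29), CG13921 (0.42 ± 0.44), CG18764 (0.32 ± 0.32) and Det (0.25 ± 0.25). These differences were small, all below 0.62 on the log2 scale, and limma's adjusted p was 1 for each. At 5, 60 and 90 min, which share the control arrays, mean same-letter differences were 0.34, 0.34 and 0.10 for kuk and 0.54, 0.55 and 0.32 for bdg. For C3G they were -0.22, 0.32 and 0.12.

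On the lower side stood 5 named genes. pds5, which encodes a regulator of the cohesin ring, had 1004, 1022 and 677 in 30 min A, B and C, against 1303, 1377 and 1168 in control A, B and C. Its 30 min C array was the lowest, and the difference was -0.53 ± 0.36 (SE). Against the same controls, the mean same-letter difference of pds5 was -0.75, -1.08 and -0.56 at 5, 60 and 90 min. P5CDh1, an enzyme of proline breakdown, had 503, 307 and 316 at 30 min and 649, 521 and 543 in the controls and differed by -0.64 ± 0.39. Tap42, a regulator of PP2A-type phosphatases, had 942, 543 and 991 at 30 min and 1139, 1003 and 1285 in the controls. Here 30 min B was well below the other 5 arrays, and the difference of -0.51 became -0.23 without that array. Reps, an EH-domain protein of endocytosis, differed by -0.55 ± 0.41 and CG5815 by -0.16 ± 0.32. None had an unadjusted p below 0.123 in limma's test without the block.

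Each irradiated array was also set against the control of its own letter, which leaves the mean difference of a probe set as it is and changes its error. All 3 letters pointed the same way for 996 bright probe sets that were higher (17.4%) and for 596 that were lower (10.4%). The letters did not move alike over the whole array, however. Across the bright probe sets, which are not independent of each other, the differences correlated at -0.483 between A and B, at 0.189 between A and C and at 0.307 between B and C. The spread of the differences was 0.506 in A, 0.794 in B and 0.741 in C (SD over bright probe sets). Beyond 1 on the log2 scale lay 6.35% of bright probe sets in A, 18.6% in B and 15.2% in C.

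The named genes are those with the smallest p when the letter was a block. On the higher side, Tom, a Bearded family gene that dampens Notch signalling, had 5438, 17498 and 12047 in 30 min A, B and C, against 4527, 8579 and 4164 in control A, B and C. The letters spread widely, yet each irradiated array exceeded its own control, by 0.26, 1.03 and 1.53 for A, B and C. gbb, a BMP ligand, had 721, 3771 and 3052 at 30 min and 586, 1221 and 938 in the controls, with letter differences of 0.30, 1.63 and 1.70. dan, a nuclear protein of the pipsqueak family, had 1728, 9071 and 3262 at 30 min and 1543, 2923 and 624 in the controls, with letter differences of 0.16, 1.63 and 2.38. In these genes letter A differed least. The letter differences of noc, a zinc finger gene, were 0.42, 1.06 and 1.63, and those of Cyp310a1, a cytochrome P450 gene, were 0.49, 1.42 and 2.35. Atx-1, the fly relative of ataxin 1, differed by 0.51, 1.58 and 1.67 and link by 0.23, 0.62 and 1.24. hll had the smallest p of the higher bright probe sets with the block, at 0.000135 unadjusted and 0.657 after adjustment, and its values were 1112, 5638 and 2688 in 30 min A, B and C, against 751, 1623 and 959 in control A, B and C.

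On the lower side, otu, which encodes an RNA-binding deubiquitinase of the ovary, had 1551, 59.8 and 118 in 30 min A, B and C, against 2376, 473 and 379.7 in control A, B and C. Values of A were higher than those of B and C in both groups, and within letters otu differed by -0.62, -2.96 and -1.68. zpg, the germline gap junction protein, had 2269.8, 237 and 675 at 30 min and 2924, 989 and 2639 in the controls, with letter differences of -0.37, -2.05 and -1.97. osk, which organises the germ plasm at the posterior pole, had 2621, 562 and 164 at 30 min and 3954, 1094 and 639 in the controls, with letter differences of -0.59, -0.96 and -1.95. The gene has 3 bright probe sets, and the difference of the group means was -1.17 in this one and -0.99 and -0.91 in the other two. Letter differences were -0.15, -2.07 and -2.25 for Lsd-2, a perilipin that coats lipid droplets, and -0.21, -2.27 and -1.80 for Pxt, a peroxidase needed for egg development. stai, the microtubule regulator stathmin, differed by -0.55, -1.56 and -1.36, Fs(2)Ket, an importin beta, by -0.44, -1.32 and -2.92, and Mctp, a C2-domain membrane protein, by -0.66, -1.74 and -1.91. Their unadjusted p with the block lay between 0.000621 and 0.00147, and each had an adjusted p of 0.657. The other times share the control arrays, and in these the same genes had mean same-letter differences of -1.95, -1.91 and -1.18 at 5, 60 and 90 min for otu and of 1.04, 1.02 and 0.75 for Tom.

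**Figure D2:**
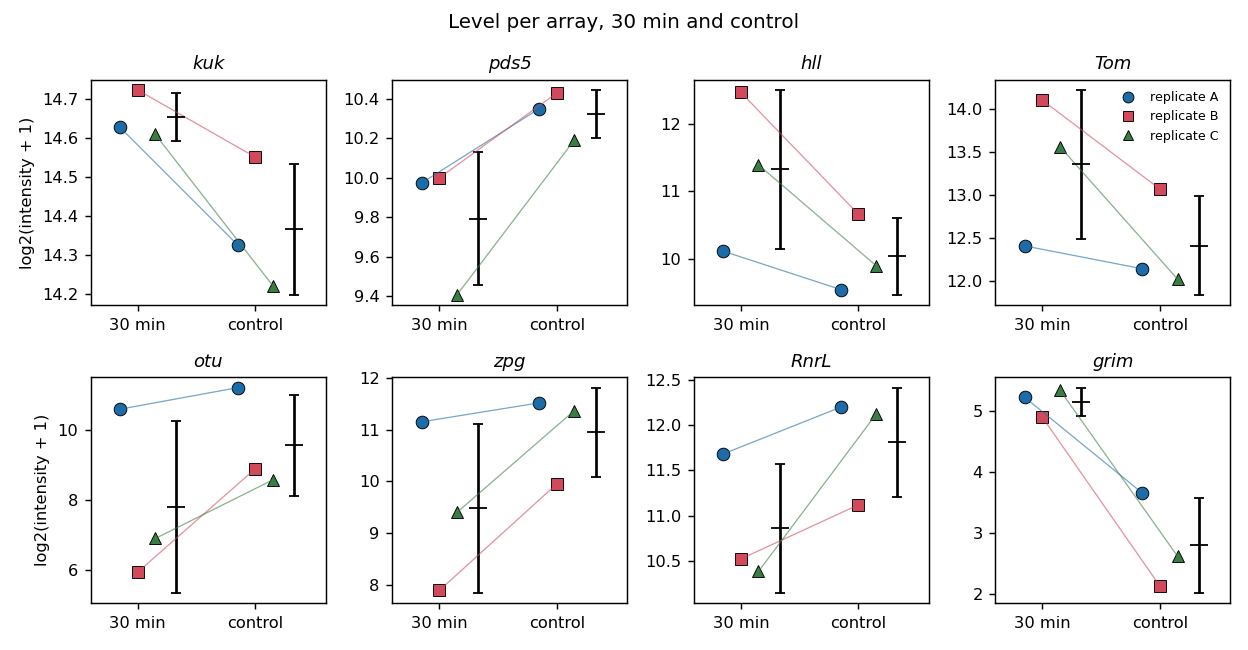
Level of 8 genes as log2(intensity + 1) in the 30 min arrays and the control arrays, with lines joining arrays of the same letter and bars giving the mean and SD of 3 arrays. kuk, pds5 and grim have separate ranges, while hll, Tom, otu, zpg and RnrL overlap between groups but differ the same way in each letter. The y axes differ between panels.

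Groups of genes were described by counts and medians, to be read against all bright genes, of which 2240 of 4850 (46.2%) were higher and 2610 (53.8%) lower at 30 min, with a median difference of -0.03. All 3 letters were lower for 11% of these genes and higher for 16.1%. Of transcripts supplied by the mother, 27 of 30 bright genes were lower and 3 higher, with a median of -0.51, and 13 were lower in all 3 letters. The maternal alpha-tubulin alphaTub67C had the lowest value, at 811, 107 and 414 in 30 min A, B and C, against 3482, 343 and 3176 in control A, B and C. Control A and control C stood far above the other 4 arrays, and the difference was -2.24 ± 0.93 (SE), with an adjusted p of 1 in limma's test. Other members were CycB, a mitotic cyclin (-0.06 ± 0.21), me31B, an RNA helicase that represses maternal mRNA (0.08 ± 0.67; quantile normalisation turned its sign, to -0.05) and smg, which triggers maternal mRNA decay (-0.33 ± 0.56). vls, a germ plasm gene, was the highest bright member at 0.41 ± 0.45. By letter the list median was 0.06, -0.93 and -0.57, so that letter A showed no shift in this median. With 1 array left out at a time, the list median of bright genes ran from -1.07 (without 30 min A) to -0.36 (without control A). The other times share the control arrays, and there the list median was -0.81, -0.64 and -0.28 at 5, 60 and 90 min.

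Of the markers of pole cells, the germline precursors, 11 of 12 bright genes were lower, with a median of -0.72 and letter medians of -0.06, -1.0 and -0.60. zpg was the lowest, while AGO3, an Argonaute of the piRNA pathway, lay at 0.27 ± 0.60. The list shares members with the maternal list. Summed over its 14 measured members, the intensity was 57408, 26619.9 and 34629 in 30 min A, B and C and 54771, 46792 and 41722 in control A, B and C, and no member was at 0. The group ranges of this sum overlapped. In letter A the sum was higher at 30 min than in the control, and in B and C it was lower. With 1 array left out at a time, the list median of bright genes ran from -1.27 (without 30 min A) to -0.35 (without control A). Against the same controls the list median was -0.71, -0.76 and -0.44 at 5, 60 and 90 min.

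Of neuroectoderm and proneural genes 17 of 18 bright genes were higher and 1 lower, with a median of 0.82, and 11 were higher in all 3 letters. E(spl)m7-HLH, a repressor that Notch induces, was the highest bright gene at 1.46 ± 0.94, and sc, a proneural gene, the lowest bright one at -0.22 ± 0.92, though with the spike-in level as a covariate sc lay at 0.08. mira, which segregates fate determinants in neuroblasts, had 1829, 4886 and 6534 at 30 min and 1629, 3382 and 1837 in the controls. Each letter was higher, by 0.17, 0.53 and 1.83. The Sox gene D had 6346, 5395 and 6019 at 30 min and 3587, 6989 and 2486 in the controls, and its letters disagreed, at 0.82, -0.37 and 1.28. The list median was 0.51, 1.12 and 1.28 by letter. With 1 array left out at a time, the list median of bright genes ran from 0.21 (without control C) to 1.33 (without 30 min C). At 5, 60 and 90 min, which share the control arrays, the list median against control was 0.53, 0.76 and 0.32.

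Dorsal ectoderm and amnioserosa genes had 9 of 15 bright members higher and a median of 0.31. Ama, an immunoglobulin-domain adhesion protein, had 3939.6, 14809 and 6344 at 30 min and 3215, 7206 and 1931 in the controls and differed by 1.02 ± 0.56, and Ance, a peptidase of the amnioserosa, differed by 1.03 ± 0.70. The homeobox gene zen (-0.77 ± 0.93) and the BMP ligand scw (-1.66 ± 1.25) were on the lower side. Their letter differences were 0.88, -3.09 and -0.11 for zen and 1.02, -6.25 and 0.26 for scw, so that letter B was far lower than A and C. Of endoderm and gut primordium genes 7 of 9 bright genes were higher and 2 lower, with a median of 0.45. The posterior homeobox gene cad, which is also maternally supplied, was lowest at -1.01 ± 0.65, with letter differences of -0.08, -1.62 and -1.35, and bowl, a zinc finger gene, was the highest bright gene at 1.15 ± 0.71. Ventral furrow and mesoderm genes had a median of 0.31, with 4 of 6 higher. There the mesoderm regulators twi and sna lay at 0.57 ± 0.42 and 0.40 ± 0.64, and the receptor gene mthl1 was lowest at -0.61 ± 0.59. The 3 bright segment polarity genes were higher: ci, the effector of Hedgehog signalling (1.21 ± 1.22), nkd, an antagonist of Wingless signalling (1.79 ± 1.42), and ptc, the Hedgehog receptor (0.48 ± 0.67). Counting dim genes too, 10 of 10 were higher, against 56.3% of all 11982 genes. The letter medians of the 3 bright genes were 0.12, 1.03 and 2.49. Against the same controls their median was 0.86, 0.96 and 0.18 at 5, 60 and 90 min. Control C had an intensity of 7.29 for nkd and 84.8 for ci, the lowest of the 6 arrays for both. Leaving out 1 array at a time, the median of the 3 genes ran from -0.31 (without control C) to 2.23 (without control B), that of dorsal ectoderm genes from -0.18 (without control C) to 1.11 (without control B), that of endoderm genes from -0.22 (without control C) to 1.10 (without control B) and that of mesoderm genes from -0.02 (without control C) to 0.41 (without 30 min C).

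For genes of zygotic activation and cellularisation the median was 0.05, the outcome of letter medians of 0.57, -1.31 and 0.91 for A, B and C. Gap genes gave 0.77, -1.01 and 1.03 by letter (7 bright genes, median 0.25) and pair-rule genes 0.23, -0.57 and 1.15 (8 genes, median 0.23). With 1 array left out, the median of zygotic activation genes ran from -0.20 (without control C) to 0.47 (without control B), that of gap genes from -0.38 (without control C) to 0.77 (without control B) and that of pair-rule genes from -0.71 (without control C) to 0.90 (without control B). The gap genes gt and kni lay at 0.84, -1.01 and 0.91 and 0.90, -1.40 and 1.15 by letter, hb at 0.29, -1.78 and -0.32 and the head gene oc at 0.38, 0.15 and 2.29. Of the pair-rule genes, hry lay at 0.32, -0.93 and 1.19 and opa at -0.17, 0.14 and 2.11. The 1 bright gene of the Hox list, the trunk gene tsh, lay at 1.25 ± 0.85. Markers of later embryos and of hemocytes also had same-letter differences of both signs. Late embryonic muscle, nerve and cuticle genes (23 measured, none at 0) summed to 3281, 17202 and 3794 in 30 min A, B and C and to 10696, 4926 and 1428 in control A, B and C. Their 6 bright members had letter medians of -1.76, 1.95 and 1.49, with the myosin light chain Mlc1 at -1.69, 2.01 and 1.47, the actin Act87E at -1.69, 1.73 and 1.23 and the tracheal chitin gene verm at -1.84, 2.11 and 2.16. Hemocyte markers (16 measured, none at 0) summed to 2418, 10087 and 2505 at 30 min and to 4584, 3703 and 1004 in the controls, and the type IV collagens vkg and Col4a1 lay at -1.39, 2.04 and 1.34 and -0.97, 1.69 and 1.45 by letter. In both lists letter A was lower and letters B and C were higher. 30 min A had the lowest sum of the A arrays, 30 min B the highest of the B arrays and control C the lowest of the C arrays. At the other times the late embryo sums were 8147 to 12830 in A, 3170 to 7321 in B and 3909 to 5379 in C. The part of these markers in the differences above was not tested. Eggshell genes (16 measured) summed to 290.0 to 732 at 30 min and 282 to 377 in the controls, and adult and testis genes (13 measured) to 236 to 363 at 30 min and 202 to 358 in the controls.

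**Figure D3:**
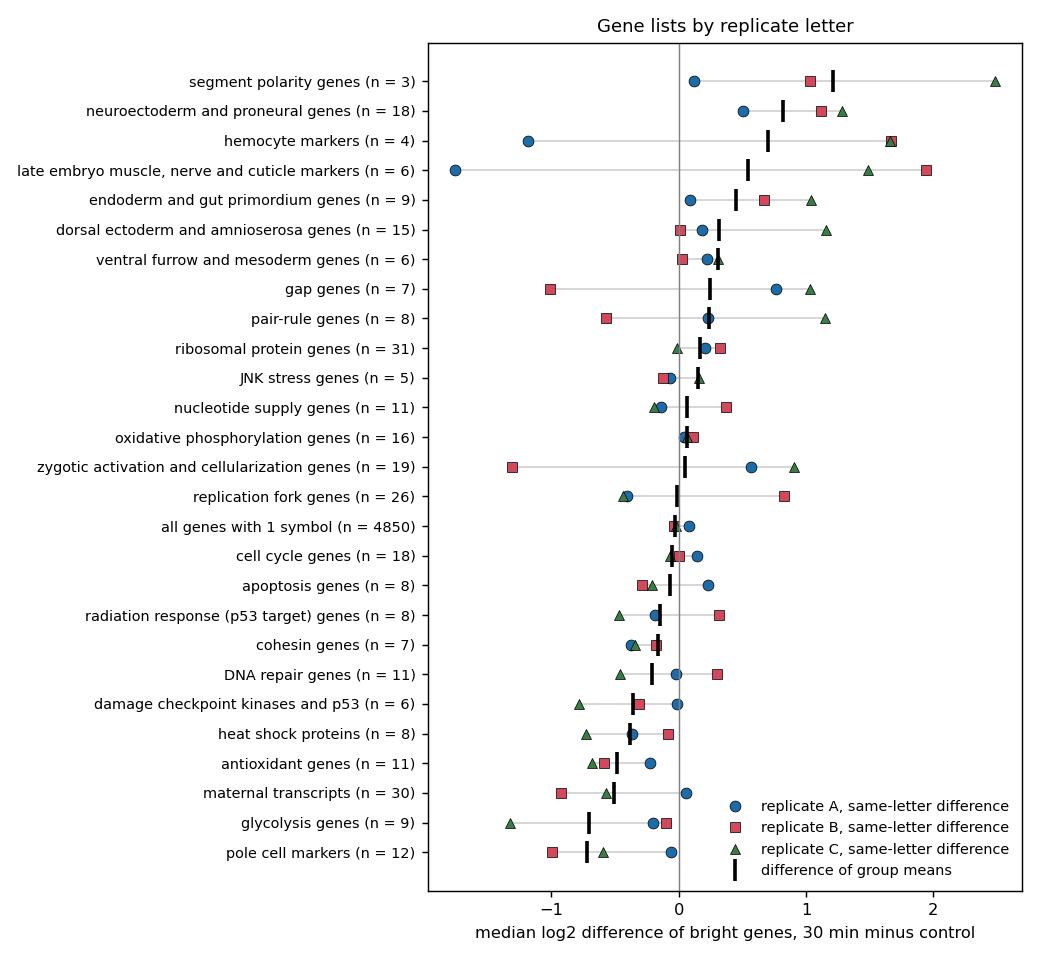
Median log2 difference, 30 min minus control, of the bright genes of each list with 3 or more such genes (rows, with n), for each letter (symbols) and for the difference of group means (black bars). For the group means, the pole cell, maternal and glycolysis lists lie left of 0 and the neuroectoderm and segment polarity lists right of it, while zygotic activation, gap, hemocyte and late embryo lists have letters on both sides.

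Of 8 bright genes of the p53-dependent radiation list 2 were higher and 6 lower, with a median of -0.15 and letter medians of -0.19, 0.32 and -0.47. Leaving out 1 array moved this median between -0.60 (without control C) and 0.04 (without 30 min C). The large ribonucleotide reductase subunit gene RnrL had 3281, 1470.4 and 1336 in 30 min A, B and C, against 4689, 2223 and 4439 in control A, B and C. Each irradiated array was below its own control, with log2 differences of -0.51, -0.60 and -1.73, and the difference was -0.95 ± 0.47 (SE), with an adjusted p of 1 in limma's test and 0.657 with the block. Traf4, an adaptor of JNK signalling, had 1540.2, 5988 and 1565 at 30 min and 1245, 2874 and 412 in the controls. Its arrays lay above their own controls by 0.31, 1.06 and 1.92. At 5, 60 and 90 min, which share the control arrays, mean same-letter differences were -1.13, -1.39 and -1.26 for RnrL. For Traf4 they were 0.91, 1.12 and 0.65. Against the mean of these other times, RnrL at 30 min differed by 0.31 ± 0.38. No adjusted p-value of RnrL or Traf4 against control passed, and p53 lay at -0.17 ± 0.34, lok at -0.42 ± 0.35 and grp at -0.37 ± 0.44. mre11, a nuclease that senses breaks, lay at -0.18 ± 0.55, the Ku subunits Irbp and Ku80 at -0.75 ± 0.54 and -0.12 ± 0.57, and Corp, a p53 target, at -0.05 ± 0.33.

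Among the dim radiation genes, the death gene grim had 36.3, 28.7 and 39.5 in 30 min A, B and C, against 11.6, 3.38 and 5.14 in control A, B and C. Its ranges were separate and the difference was 2.35 ± 0.79 (SE), with an unadjusted p of 0.00945 and an adjusted p of 1. All of these intensities were near or below the median intensity of an array, which lay between 29.05 and 43.32, and the 9 arrays of the other times had grim values of 1.91 to 28.8. Over all probe sets 4.02% had all 3 irradiated arrays above all 3 controls. The other dim genes named here were skl, tefu and mei-41. skl differed by 0.81 ± 0.61, tefu by -1.02 ± 1.38 and mei-41 by -0.06 ± 0.53. Apoptosis genes as a list had 4 of 8 bright members higher. The effector caspase Dcp-1 had 2826, 4828 and 4087 at 30 min and 2323, 3332 and 2716 in the controls and was higher in each letter, by 0.28, 0.53 and 0.59. The initiator caspase Dronc lay at -0.33 ± 0.44, the inhibitor Diap2 at -0.21 ± 0.50 and Debcl, a Bcl-2 family protein, at -1.44 ± 0.77. Debcl had 487, 122 and 350 in 30 min A, B and C, against 1363, 185 and 1671 in control A, B and C. Control A and control C thus stood above the other arrays of the 2 groups, and 90 min B was also high, at 1189.

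**Figure D4:**
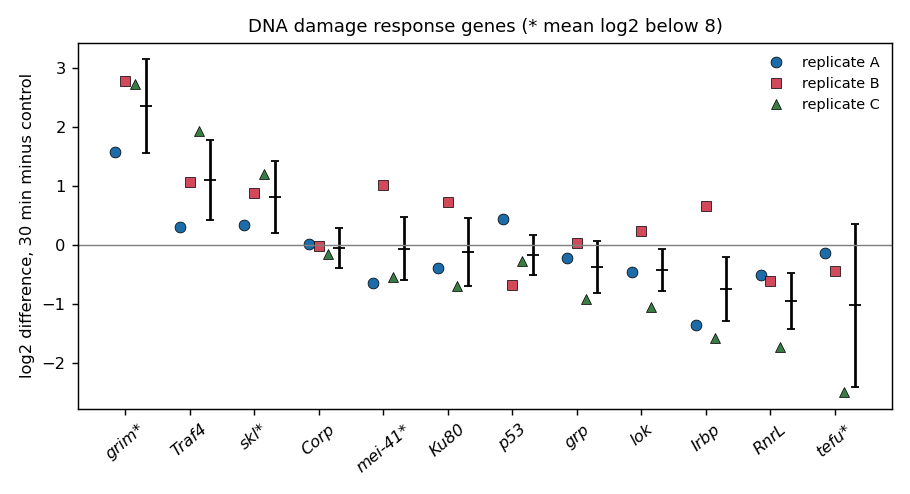
Log2 difference, 30 min minus control, of 12 damage response genes for each letter (symbols) and for the group means with SE (bars), ordered by the mean. grim lies highest at 2.35 but is dim, and the letters of most other genes fall on both sides of 0.

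Checkpoint kinases with p53 had a median of -0.36 over 6 bright genes, which ran from -0.49 (without control C) to -0.08 (without 30 min C) with 1 array left out. The median was -0.21 over 11 DNA repair genes, with a range of -0.39 (without control C) to 0.50 (without 30 min C). It was 0.07 over 11 nucleotide supply genes, -0.05 over 18 cell cycle genes and -0.16 over 7 cohesin genes, and each of these 3 changed sign when 1 array was left out. Replication fork genes had 13 of 26 members on either side and letter medians of -0.41, 0.83 and -0.44, so letter B opposed A and C. PCNA, the clamp that holds DNA polymerase, lay at 0.11, 0.40 and -0.07 by letter and the helicase subunit Mcm2 at -0.06, 0.74 and -0.81. mus81, a nuclease that cuts branched DNA, was the lowest of the bright repair genes at -0.96 ± 0.55, with letter differences of 0.19, -1.71 and -1.36. Among cell cycle genes, fzy, an activator of the anaphase-promoting complex, lay at 0.23, 0.16 and 0.13 and Rbf, a retinoblastoma protein, at -0.83, 0.04 and -1.04. Besides pds5, the cohesin group held wapl, which releases cohesin, at -0.39 ± 0.42 and the ring subunit SMC1 at 0.43 ± 0.84, with letter differences of -0.49, 1.42 and 0.35. JNK stress genes had a median of 0.15 over 5 genes, with the kinase bsk at 0.73 ± 0.54 and its phosphatase puc at -0.33 ± 1.19. Both bright immune genes, the NF-kappaB factor Rel and the Toll ligand spz, were lower (-0.48 ± 0.87 and -1.02 ± 1.31).

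Of antioxidant genes 8 of 11 were lower, with a median of -0.48, and 6 were lower in all 3 letters. Against the same controls the list median was -0.56, -0.59 and -0.05 at 5, 60 and 90 min. The lowest was dhd, a thioredoxin made in the ovary, at 4228, 501 and 4072 in 30 min A, B and C, against 14768, 2006 and 25819 in control A, B and C. As with alphaTub67C, control A and control C stood above the other arrays. The difference was -2.16 ± 0.99 (SE) and limma's adjusted p was 1. The superoxide dismutases Sod2 and Sod3 lay at -0.29 ± 0.39 and -0.48 ± 0.40, and GstS1, a glutathione transferase, at 0.28 ± 0.45. Heat shock proteins had 6 of 8 members lower and a median of -0.38. The small heat shock gene Hsp26 had 1759.7, 442 and 1393 at 30 min and 7757, 803 and 9016 in the controls. Hsp27 had 7011, 780.1 and 2039 at 30 min and 8872, 2797 and 10273 in the controls, and each of its letters was lower, with log2 differences of -0.34, -1.84 and -2.33. The cognate chaperones Hsc70-3 and Hsc70-4 lay at -0.50 ± 0.33 and 0.13 ± 0.23, the second at -0.04 after quantile normalisation, and the small chaperone l(2)efl at 0.77 ± 0.66.

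All 9 bright glycolysis genes were lower in the group means, with a median of -0.70 and letter medians of -0.20, -0.10 and -1.32. Tpi, triose phosphate isomerase, had 695, 819.5 and 1122 in 30 min A, B and C, against 4042, 427 and 4505 in control A, B and C. Controls A and C were again the 2 high arrays, and in letter B the irradiated array was the higher one. Eno, enolase, differed by -0.11, -1.03 and -1.35 by letter, Gapdh1 by -0.24, -0.91 and -1.32 and Ald1, aldolase, by -0.20, -0.10 and 0.09. All 31 bright ribosomal protein genes were higher in the group means, by a median of 0.17, with letter medians of 0.20, 0.33 and -0.02. RpS18 differed by 0.15 ± 0.31, RpLP1 by 0.17 ± 0.29, RpL36A by 0.22 ± 0.25 and RpL41 by 0.14 ± 0.30. Quantile normalisation brought the list median to 0.01 and RpL41 to -0.02. With 1 array left out at a time it ran from 0.03 (without 30 min C) to 0.42 (without control C), and the median of glycolysis genes from -1.14 (without control B) to -0.17 (without 30 min B). Oxidative phosphorylation genes had a median of 0.06 over 16 genes. At 5, 60 and 90 min, which share the control arrays, the glycolysis median was -0.75, -0.78 and -0.06. The ribosomal protein median was 0.25, 0.27 and 0.23 at these times.

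Of 205 bright probe sets whose group means differed by 1 or more on the log2 scale, which is a 2-fold difference, 33 still did so in the same direction without 30 min B. With any other array of the 6 left out, 268 to 683 bright probe sets reached 1, against 42 without 30 min B. Within letters, the mean of A and C alone reached 1 in the same direction for 146 of the 205. The largest of the 3 same-letter differences was that of C for 142 of the 205, that of B for 56 and that of A for 7. Without 30 min B, control B stays in the control mean with no irradiated array of its letter. 30 min B was the lowest of all 15 arrays by 1 or more for 42 bright probe sets and the highest for 9. Control C was the lowest for 89 and the highest for 21, control A the highest for 19, and the other 30 min arrays were the lowest for 8 (A) and 1 (C).

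The 6 lower genes named for resting on 30 min B were nullo, scw, Elba3, CG13711, CG13712 and CG43725. nullo, which holds the invaginating furrow membranes together, had 2949.9, 15.9 and 1140.4 in 30 min A, B and C, against 1413, 1745 and 2189 in control A, B and C. The 30 min B value was by far the lowest, and the other B arrays had 171, 309 and 397 at 5, 60 and 90 min. Without 30 min B the difference of -2.19 became 0.06, and -0.54 with the block. scw had 2294, 21.8 and 1645 in 30 min A, B and C, against 1127, 1741 and 1372 in control A, B and C, and its difference of -1.66 became 0.48 without the array, and 0.12 with the block. Elba3, a subunit of a chromatin insulator complex of the early embryo, had 7213, 106 and 7097 at 30 min and 3548, 7127 and 8596 in the controls, and -1.77 became 0.25, and -0.05 with the block. CG13711 (-1.64), CG13712 (-1.88) and CG43725 (-1.35) lay at 0.70, 0.63 and 0.63 without it, and at 0.44, 0.13 and 0.61 with the block. Outside this set, slam, which drives membrane growth in cellularisation, had 654 in 30 min B and 6965 to 14345 in the other 5 arrays. Sry-alpha, an actin regulator of the same process, had 2005 there against 5681 to 25391 in the other 5. grh, a transcription factor of later epithelia, lay at 0.16, 0.63 and 3.21 by letter.

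The higher genes chosen by the same rule were led by 30 min B. ImpL2, a secreted antagonist of insulin-like peptides, had 1248, 5972 and 241 in 30 min A, B and C, against 717, 1234 and 91.5 in control A, B and C, and its difference of 1.49 became 0.34 without 30 min B, and 0.73 with the block. Osi15, an Osiris family gene of the cuticle-forming epidermis, had 306, 4891 and 581 at 30 min and 1833, 1362 and 138 in the controls. TwdlF, a Tweedle cuticle protein, had 146, 2422 and 321 at 30 min and 1173, 1071 and 48.7 in the controls. For both, 30 min B was the highest of the 6 arrays, 30 min A the lowest but one, and control C the lowest. The proneural gene l(1)sc (0.52), Phk-3 (0.20), and lncRNA:CR42862 (0.44) moved to -0.60, -0.92 and -0.75 without it, as did Osi15 to -0.74 and TwdlF to -0.87. With the block these 5 values were -0.36, -1.27, -0.45, -0.64 and -1.18.

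**Figure D5:**
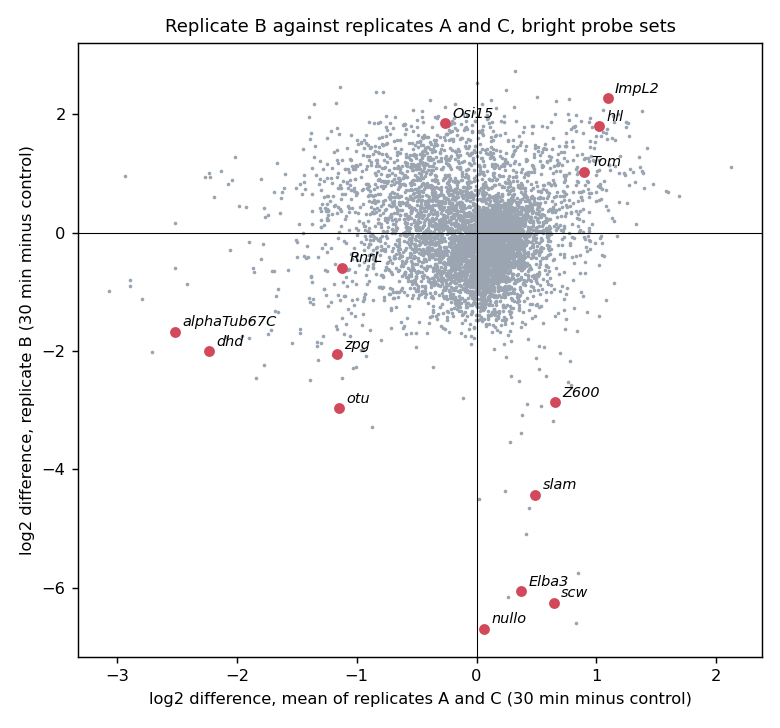
Log2 difference in replicate B (y axis) against the mean of replicates A and C (x axis), 30 min minus control, for 5731 bright probe sets, with named genes in red. nullo, scw, Elba3 and slam lie below -4 in replicate B and near or above 0 in A and C, while alphaTub67C, dhd, otu and zpg lie below 0 on both axes.

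Set against the mean of the 5, 60 and 90 min groups, the 30 min group also had 0 of 18769 probe sets past an adjusted p of 0.05 in limma's test. The difference itself does not use the controls, but they entered the estimate of the spread. The smallest adjusted p was 0.512, and 0.927 with the block. At an unadjusted p under 0.05 there were 430 probe sets (2.29%), of which 4 were bright (0.0698%), and with the block 532 (2.83%), of which 41 were bright (0.715%). The lowest p of the lower bright genes belonged to CG43725, at -2.04 ± 0.90 (SE), followed by CG14915 (-0.93), Z600, an inhibitor of mitosis at gastrulation (-1.07), bard (-0.92) and Ac78C, an adenylate cyclase (-0.74). 30 min B was the lowest of the 15 arrays for each of these 5 genes. On the higher side were C3G (0.54 ± 0.30), the ubiquitin ligase HUWE1 (0.62), the UFM1 ligase Ufl1 (0.67), the condensin subunit Cap-G (0.49) and the folliculin gene BHD (0.64). Genes with the smallest p against control under the block were close to 0 in this comparison, at 0.03 for hll, 0.01 for Tom, -0.07 for otu and -0.14 for zpg, with SE of 0.53, 0.40, 1.01 and 0.64.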

How the data were processed

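RNA of 15 embryo samples was hybridised to Affymetrix arrays, 3 per group, and the labels call the replicates biological. The deposited values are intensities per probe set, made by the authors with MAS5 per the submitters' processing notes (version not given in the sources used here). In the deposited file the mean intensity after trimming 2% at each end was 500.01 or 500.02 in every array, so values are relative to the array's total. MAS5 subtracts mismatch probes, which makes low intensities noisy, and the number of arrays limits the precision. Of 18952 probe sets, 183 controls were left out, and 18769 entered the tests as log2(intensity + 1) of the deposited intensities. Linear models with 5 groups were fitted to all 15 arrays in limma 3.58.1 (R 4.3.3), with moderated variances that follow the mean level, and p-values were adjusted by Benjamini-Hochberg over 18769 probe sets, with a threshold of 0.05. The replicate letter as a block was the alternative. Deviations from the group means correlated at 0.12, 0.217 and 0.434 for A, B and C between same-letter arrays of the 30 min and control groups. Between 30 min and 90 min these correlations were 0.336, -0.134 and 0.239. The letters were taken to pair the arrays, but arrays of different letters were not compared in this way, so the pairing was not tested. Levels of bright probe sets correlated at 0.947, 0.871 and 0.923 between same-letter 30 min and control arrays. By this measure every A and C array was closest to an array of its own letter. Control B was closest to 60 min A (0.985) and 90 min B to 60 min C (0.97), and the other B arrays to B arrays. The labels give no shared day or cage for a letter.

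Gene symbols came from the platform annotation: 13647 probe sets had 1 symbol, 402 several and 4720 none, and only the first kind was named. In the lists a gene was represented by its probe set with the highest mean over the 6 arrays, and other genes were named by their own probe set. Besides osk, some named genes had more than 1 bright probe set, and the values given are those of 1. Fs(2)Ket, Ssu72, gt, bsk, Ald1 and ATPsynbeta had 2 each and lncRNA:CR42862 had 3. Embryos irradiated 30 min before freezing were also younger at irradiation than those of the 5 min group, so age at irradiation and time since it cannot be told apart. On simulated data with letter effects, in which 200 bright probe sets were changed, the test found 83.6% of those changed by 2 (log2) with the block and 39.4% without it. For a change of 1 these shares were 30.7% and 0.597%. The simulated letter effects were the same in every group. With independent noise in place of letter effects, the shares for a change of 2 were 41.5% with the block and 45.7% without it. For a change of 1 they were 3.28% and 3.58%. The letters of the real arrays did not move alike, so the shares for these arrays are not known. The genes were named by rules on p, separation of the groups, dependence on 30 min B, membership in a list and the comparison with other times. The compared groups, the 30 gene lists and the rules were chosen with earlier results of these data known. Alternatives were the block as a random effect, the 6 arrays alone, bright probe sets alone, a 40th percentile filter, a pseudocount of 16, quantile normalisation, the spike-in level as a covariate and leaving out each array.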

Additional observations from a re-analysis of the deposited data

Results flagged for a closer look

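C3G was higher at 30 min in each letter, by a mean same-letter log2 difference of 0.61, and lower at 5 min in each letter, by -0.22. Its intensity was 408, 464 and 434 in 30 min A, B and C, 213, 316 and 215 in 5 min A, B and C and 269, 367 and 232 in control A, B and C. Both comparisons share the control arrays, and the difference between the 2 times was not tested.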

How the results depend on the processing

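Under every alternative run, 0 probe sets passed an adjusted p of 0.05 in limma's test of 30 min against control, with smallest adjusted p from 0.115 (6 arrays with the replicate block) upwards. The count of bright probe sets at an unadjusted p under 0.05 was 18. It was 408 with the replicate block, 185 with the block as a random effect, 2 with the 6 arrays only, 411 with the 6 arrays and the block, 11 with bright probe sets only, 430 with these and the block, 558 with quantile normalisation and the block and 261 with the spike-in level as a covariate. Leaving out 1 array gave 0 (30 min B, control C) to 308 (control B), and 234 without 30 min B with the block. The other settings stayed within 1.5 times. The cause was not tested.

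List medians over bright genes ran, with 1 array left out, over DNA repair genes -0.39 to 0.50, JNK stress genes -0.12 to 0.34, antioxidant genes -1.21 to -0.32, apoptosis genes -0.22 to -0.04, cell cycle genes -0.24 to 0.23, cohesin genes -0.49 to 0.07, damage checkpoint kinases and p53 -0.49 to -0.08, dorsal ectoderm and amnioserosa genes -0.18 to 1.11, endoderm and gut primordium genes -0.22 to 1.10, gap genes -0.38 to 0.77, glycolysis genes -1.14 to -0.17, heat shock proteins -0.61 to -0.20, hemocyte markers -0.12 to 1.25, late embryo muscle, nerve and cuticle markers -0.28 to 1.27, maternal transcripts -1.07 to -0.36, neuroectoderm and proneural genes 0.21 to 1.33, nucleotide supply genes -0.29 to 0.22, oxidative phosphorylation genes -0.13 to 0.17, pair-rule genes -0.71 to 0.90, pole cell markers -1.27 to -0.35, radiation response genes -0.60 to 0.04, replication fork genes -0.23 to 0.14, ribosomal protein genes 0.03 to 0.42, segment polarity genes -0.31 to 2.23, ventral furrow and mesoderm genes -0.02 to 0.41 and zygotic activation and cellularization genes -0.20 to 0.47. The mesoderm median was 0.53 over all genes, and the oxidative phosphorylation median 0.01 after quantile normalisation and 0.14 with the mean of a gene's probe sets. Signs turned after quantile normalisation, with and without the block, for Hsc70-4 (-0.04), me31B (-0.05), RpL41 (-0.02), Claspin (-0.03), dUTPase (-0.02), CycB3 (-0.06) and ATPsynbeta (-0.06), and with the spike-in covariate for sc (0.08), Xpc (0.20), puc (0.10), ftz-f1 (0.05) and dUTPase (-0.03). Leaving out 1 array turned the sign of these log2 differences, whose ranges were AGO3 -0.50 to 0.74, ATPsynbeta -0.11 to 0.28, Ac78C -0.61 to 0.35, Act87E -0.69 to 1.28, CG13711 -2.99 to 0.70, CG13712 -3.44 to 0.63, CG14915 -0.84 to 0.44, CG43725 -2.66 to 0.63, COX5A -0.25 to 0.62, Claspin -0.86 to 0.92, Corp -0.20 to 0.08, CycB -0.19 to 0.12, CycB3 -0.22 to 0.29, Diap2 -0.57 to 0.29, Dronc -0.74 to 0.17, Elba3 -2.78 to 0.25, GstS1 -0.17 to 0.52, Ku80 -0.55 to 0.37, Mcm10 -0.97 to 0.14, Mcm2 -0.27 to 0.17, Mcm6 -0.09 to 0.19, Mlc1 -0.22 to 1.27, Osi15 -0.74 to 1.26, PCNA -0.15 to 0.50, Phk-3 -1.07 to 1.22, Rad17 -1.12 to 0.11, Rel -1.02 to 0.19, RpL41 -0.02 to 0.43, RpS18 -0.02 to 0.45, Rrp1 -0.27 to 0.21, SMC1 -0.34 to 1.13, SdhC -0.12 to 0.55, Sod2 -0.63 to 0.04, Sry-alpha -1.29 to 0.54, TwdlF -1.21 to 1.15, Ufl1 -0.09 to 0.46, Xpc -1.08 to 0.76, Z600 -1.21 to 0.48, bard -0.90 to 0.53, ci -0.31 to 2.23, dUTPase -0.20 to 0.50, dnk -0.06 to 0.51, ftz-f1 -1.09 to 0.31, fzy -0.01 to 0.34, grh -0.20 to 2.40, grp -0.74 to 0.13, gt -0.40 to 0.77, hay -0.84 to 1.17, hb -1.41 to 0.01, hkb -0.33 to 1.10, hry -0.72 to 0.86, kni -0.18 to 0.67, l(1)sc -0.60 to 1.94, lncRNA:CR42862 -1.14 to 2.04, me31B -0.54 to 0.62, mei-41 -0.39 to 0.32, mre11 -0.48 to 0.23, nkd -0.35 to 3.09, nullo -3.66 to 0.06, opa -0.74 to 1.64, p53 -0.38 to 0.15, ptc -0.28 to 0.98, puc -1.23 to 0.64, r-l -0.03 to 0.22, san -0.49 to 0.10, sc -0.94 to 0.54, scw -2.84 to 0.48, slam -1.97 to 0.26, slpr -0.94 to 0.26, smg -0.76 to 0.12, sna -0.20 to 0.87, spz -2.05 to 0.06, srp -0.24 to 1.65, tefu -2.10 to 0.69 and vkg -0.02 to 1.37. Without 30 min B and with the block, values of opposite sign were ATPsynbeta -0.05, Ac78C 0.47, Act87E -0.66, CG13711 0.44, CG13712 0.13, CG14915 0.55, CG43725 0.61, Claspin -0.45, Corp 0.07, Dronc 0.09, Mcm6 -0.06, Mlc1 -0.28, Osi15 -0.64, PCNA -0.05, Phk-3 -1.27, Rrp1 -0.25, SMC1 -0.05, Sry-alpha 0.51, TwdlF -1.18, Ufl1 -0.11, Z600 0.50, bard 0.53, hay -0.10, l(1)sc -0.36, lncRNA:CR42862 -0.45, p53 0.03, scw 0.12, slam 0.16 and vkg -0.23. In simulated data the letter effects were the same in every group. There the test without the block called 0.597% of probe sets changed by 1 (log2) and 39.4% of those changed by 2. The letters of the real arrays did not move alike, so the shares for these arrays are not known.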

Other observations

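A few bright transcripts were high in the same 3 of 15 arrays, control A, control C and 90 min B. In the order A, B and C, the intensity of dhd was 4228, 501 and 4072 in the 30 min arrays and 3895, 25595 and 4452 in the 90 min arrays, against 14768, 2006 and 25819 in the controls. The 5 min arrays had 2796, 1623 and 5106 and the 60 min arrays 2222, 2011 and 6035. For Tpi the 30 min arrays had 695, 819.5 and 1122, the 90 min arrays 847, 5901 and 1058 and the controls 4042, 427 and 4505. alphaTub67C had 624, 3546 and 546 at 90 min. Hsp26 had 1551, 10975 and 1602 at 90 min, but also 4521, 647 and 5288 at 5 min and 876, 1510.3 and 3419 at 60 min, so that 5 min A, 5 min C and 60 min C lay between the 3 high arrays and the rest. These genes were chosen after their values were seen.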
